A study of Mus musculus with 72 samples.

Results

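Enzymes that make serine and asparagine, or pass the carbon of serine on, were followed in mouse pancreatic islets: Phgdh, Psat1, Psph, Shmt2, Mthfd2 and Asns. They were chosen as the rows of the expression table that carry one of these 6 symbols, and all 6 were found among the 14604 genes of the table. The islets came from male mice, labelled 8 weeks old, of 3 inbred strains, DBA/2J, BALB/cJ and C57BL/6J, for which the labels name no engineered allele. Part of the mice ate a high-fat diet (HFD) and the others regular chow (RC), for 5, 13 or 33 days, and after isolation the islets stayed in culture overnight before lysis. One library holds the RNA of 1 mouse, taken from 120 to 150 islets, and the 69 libraries make 18 groups, of which 15 hold 4 mice. The DBA/2J groups of HFD at day 13 and of RC at day 33, and the C57BL/6J group of RC at day 33, hold 3 mice each.

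Serine is built from 3-phosphoglycerate, an intermediate of glycolysis. Phgdh oxidizes it, Psat1 adds an amino group taken from glutamate, and Psph removes the phosphate. In mitochondria Shmt2 splits serine into glycine and a one-carbon unit carried by folate, and Mthfd2 oxidizes that unit further for the synthesis of purines, thymidylate and formate. Asns makes asparagine from aspartate with the amide nitrogen of glutamine. In other mammalian cells these genes are known as targets of the transcription factor ATF4, which is translated when amino acids are scarce or the endoplasmic reticulum is under stress, and the asparagine synthetase promoter is the textbook example of an element that answers to amino acid starvation.

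The 250 bases before the annotated start of 4 of the genes are shown here, since Phgdh and Psat1 differed most between strains and Mthfd2 and Asns were the pair that varied together most closely. They are RefSeq sequences of GRCm38.p6, read 5′ to 3′ along the minus strand on which all 6 genes lie. RefSeq gives Psat1 a pair of starts. GRCm38 is an assembly of C57BL/6J, and sequence of the other strains was not examined. The part of sequence in the strain differences was not tested. Capitals mark the motifs searched on both strands, which were TGATGNAA (the C/EBP-ATF response element), CCAAT (the NF-Y box), the palindromic NRF1 motif and CACGTG (the E-box), and no match overlapped another.
Phgdh, chr3:98339970-98340219: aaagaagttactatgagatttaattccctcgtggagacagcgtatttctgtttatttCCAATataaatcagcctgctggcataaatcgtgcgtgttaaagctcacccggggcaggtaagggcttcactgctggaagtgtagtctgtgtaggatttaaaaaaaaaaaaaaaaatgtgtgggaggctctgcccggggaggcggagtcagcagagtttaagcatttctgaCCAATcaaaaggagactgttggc
Psat1, chr19:15925060-15925309: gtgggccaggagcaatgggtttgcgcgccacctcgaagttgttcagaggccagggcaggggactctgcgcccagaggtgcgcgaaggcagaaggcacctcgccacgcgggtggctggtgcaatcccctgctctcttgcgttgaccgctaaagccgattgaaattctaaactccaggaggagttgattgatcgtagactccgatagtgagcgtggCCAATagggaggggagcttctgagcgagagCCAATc
Psat1, chr19:15924623-15924872: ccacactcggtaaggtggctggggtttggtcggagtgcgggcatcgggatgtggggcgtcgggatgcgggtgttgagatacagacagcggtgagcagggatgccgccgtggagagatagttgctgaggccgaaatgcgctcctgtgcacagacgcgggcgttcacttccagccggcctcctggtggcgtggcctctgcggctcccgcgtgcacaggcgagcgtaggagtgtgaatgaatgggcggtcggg
Mthfd2, chr6:83317605-83317854: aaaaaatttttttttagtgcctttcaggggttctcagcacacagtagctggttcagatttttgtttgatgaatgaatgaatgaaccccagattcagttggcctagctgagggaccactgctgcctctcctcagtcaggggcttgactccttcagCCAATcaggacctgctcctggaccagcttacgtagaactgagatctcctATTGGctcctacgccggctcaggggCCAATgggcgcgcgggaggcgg
Asns, chr6:7693210-7693459: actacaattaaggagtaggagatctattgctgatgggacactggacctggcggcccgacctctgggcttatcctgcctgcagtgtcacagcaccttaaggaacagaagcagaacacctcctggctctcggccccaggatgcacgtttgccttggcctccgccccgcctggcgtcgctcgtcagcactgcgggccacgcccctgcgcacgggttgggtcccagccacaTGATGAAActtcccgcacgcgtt
All 6 genes matched an entry, in 7 windows that run from 250 bases before to 50 bases after a start. TGATGNAA stood in 1 of the 7 windows, that of Asns, beginning 23 bases before the start, and in 3.97% of the 32851 windows of this length. CCAAT stood in 4 of 7 windows and in 37.4% of all windows. In Phgdh it began 193 and 23 bases before the start, in Psat1 36 and 6 bases before the start in the first of its windows above, and in Mthfd2 96, 47 and 22 bases before the start. The NRF1 motif stood in the window of Shmt2, 19 bases before its start, and in 0.971% of all windows. CACGTG stood in 0 of the 7 windows and in 7.15% of all windows. These matches describe letters in a short window, and longer elements or introns were not searched. The GENCODE spans of Psat1 and Mthfd2 reach further upstream than their windows, to chr19:15947337 and chr6:83325908, and sequence before those ends was not searched.

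Levels are given as log2 CPM, the logarithm of read counts scaled to a common library total (CPM) as the authors deposited them, where 1 unit is a doubling. Reads in the table numbered 12292621 to 34591079 per library, and a member had between 45 and 4032 reads in a library. For the lowest of these counts, Psat1 in BALB/cJ HFD day 33 replicate 2, the exact 95% Poisson interval ran from 32.8 to 60.2 reads, which covers counting error only. The samples carried the marks of islets, as the summed level of 13 beta-cell markers was 131800 to 278700 CPM, and none of the markers of beta, alpha, delta and PP, endothelial or stellate cells lay at the floor of the table in any library. Acinar markers of the exocrine pancreas were present throughout and uneven, with 27 markers summing to 522.2 to 60280 CPM. In bulk RNA, fewer cells of a type and less RNA per cell cannot be told apart.

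Per kilobase of exon, Asns was the most abundant of the 6 at a mean of 42.6 CPM per kilobase over the 69 libraries. Mthfd2 followed at 15.0 CPM per kilobase. Shmt2 at 6.61 and Phgdh at 6.02 CPM per kilobase lay close together, and Psat1 at 2.60 and Psph at 2.12 CPM per kilobase were the lowest. Among all genes of the table, the mean log2 CPM of Asns stood at the 90.4th percentile and that of Psph at the 34.9th percentile. The members also differed in how far they ranged. Phgdh had an SD of 0.85 log2 CPM over the 69 libraries, Psat1 0.67 and Mthfd2 0.48, whereas Asns had 0.31, Psph 0.25 and Shmt2 0.21. Exons of Psph share 452 bases, 10.4% of its exon length, with Cct6a on the opposite strand, whose level was 6.74 to 7.48 log2 CPM. Exons of Shmt2 share 32 bases with Ndufa4l2, at 0.91 to 2.70 log2 CPM. In GRCm38 the genes lie on the minus strand, Phgdh (ENSMUSG00000053398.11) at chr3:98313170-98339990, Psat1 (ENSMUSG00000024640.9) at chr19:15904678-15947337, Psph (ENSMUSG00000029446.14) at chr5:129765558-129787449, Shmt2 (ENSMUSG00000025403.5) at chr10:127517123-127522444, Mthfd2 (ENSMUSG00000005667.8) at chr6:83305691-83325908 and Asns (ENSMUSG00000029752.12) at chr6:7675169-7693254. Whether the counting used strand is not given in the sources used here, so some reads of Psph and Shmt2 could belong to their neighbours.

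**Figure D1:**
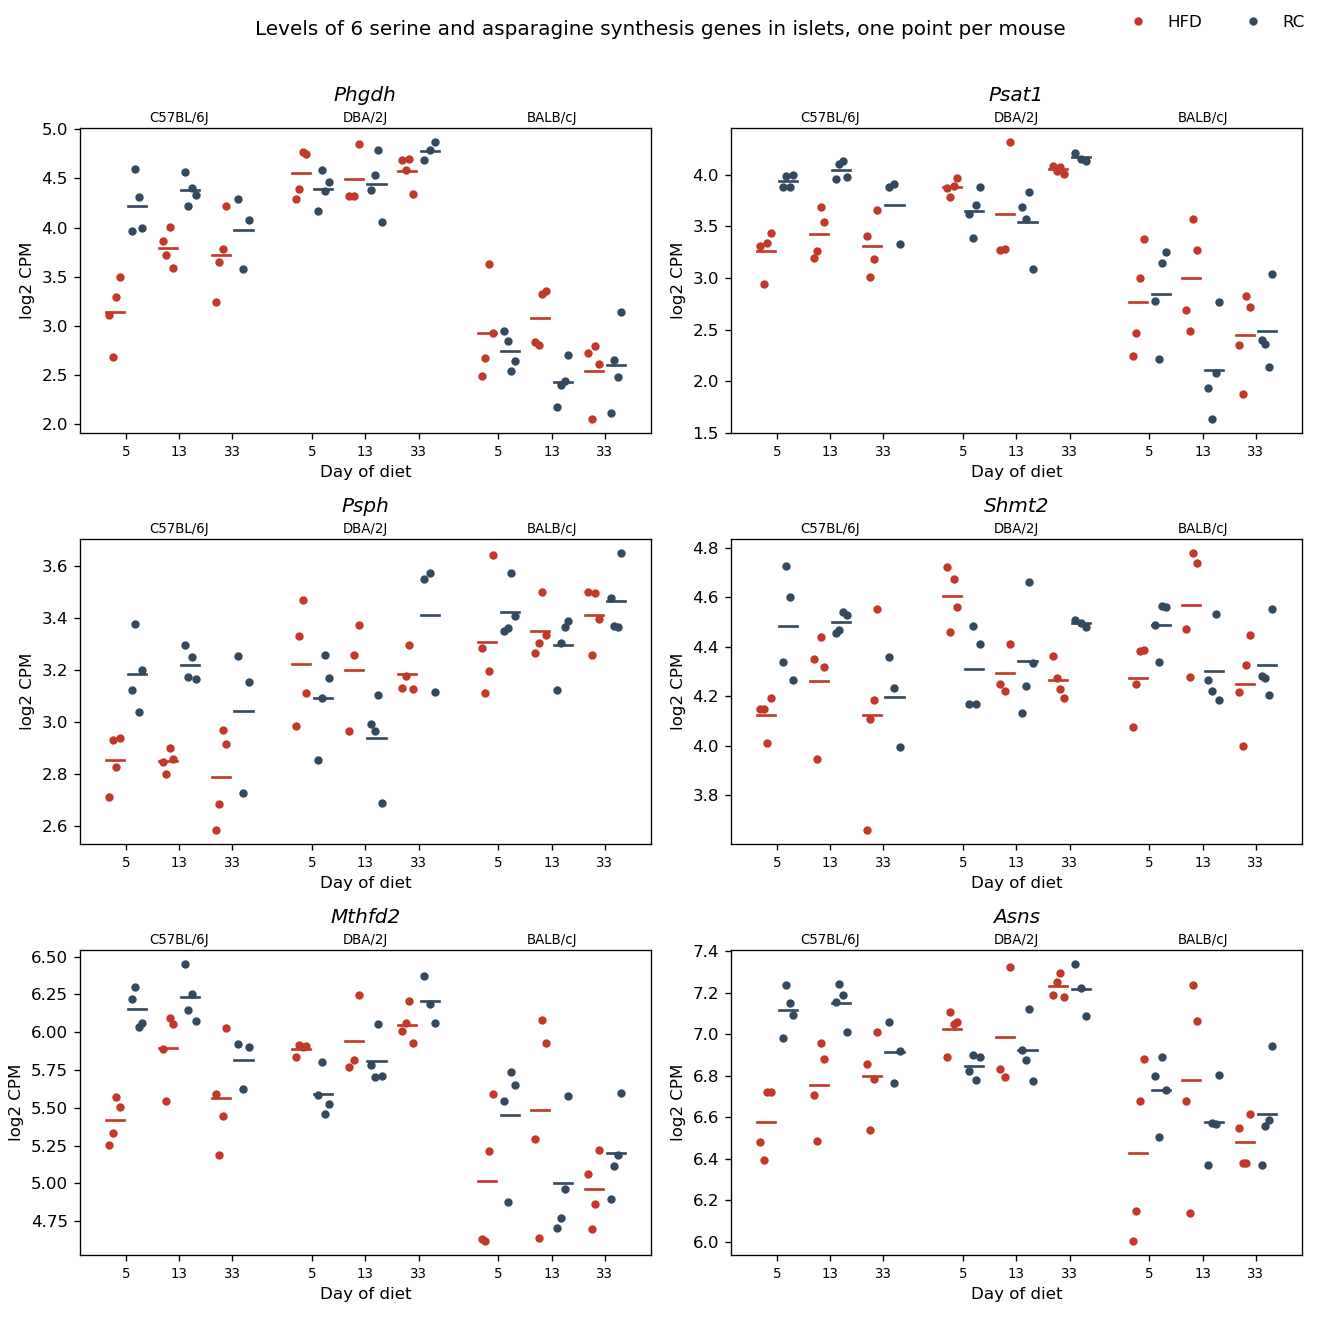
Level of each gene in log2 CPM (y axis) for every mouse, by strain and day of diet (x axis), with HFD in red left of RC in dark blue. Points are mice and bars are group means; in C57BL/6J the red points of days 5 and 13 lie below the dark blue ones for nearly every gene, while BALB/cJ has the lowest Phgdh and Psat1.

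The first question was how the diet moved these genes. In C57BL/6J all 6 fell on the high-fat diet over the 3 days together, whereas in DBA/2J and BALB/cJ 0 of 6 passed the test. Phgdh fell most in C57BL/6J, by 0.64 ± 0.12 on the log2 scale (standard error), and Shmt2 least, by 0.22 ± 0.07. All tests are limma contrasts over the 69 libraries, with p-values adjusted by the Benjamini-Hochberg method over 14604 genes and a threshold of 0.05, and ± after a log2 difference is its standard error. In this contrast 14.6% of all genes passed, and 8.05% passed and were lower, against 6 of 6 members lower. The median difference was -0.395 over the members and -0.01 over all genes.

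Among the enzymes of the serine pathway proper, Phgdh, which catalyses its committed step, had a lowest, median and highest level of 2.68, 3.62 and 4.22 log2 CPM in 12 C57BL/6J HFD libraries, against 3.58, 4.29 and 4.59 log2 CPM in 11 C57BL/6J RC libraries. The ranges overlapped, and 5 of the 12 HFD libraries lay below the lowest RC library. The adjusted p of its fall was 0.000339. Psat1, the aminotransferase, had 2.94, 3.33 and 3.69 log2 CPM in C57BL/6J HFD libraries, against 3.33, 3.96 and 4.14 log2 CPM in C57BL/6J RC libraries. It fell by 0.56 ± 0.14 (adjusted p = 0.00417), and 6 of the 12 HFD libraries were below all RC libraries. Psph, the phosphatase, had 2.58, 2.85 and 2.97 log2 CPM in C57BL/6J HFD libraries, against 2.73, 3.17 and 3.38 log2 CPM in C57BL/6J RC libraries. Its fall of 0.32 ± 0.07 had an adjusted p of 0.00139, and Cct6a, which shares exon bases with it, differed by -0.05 ± 0.05 (adjusted p = 0.547).

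The mitochondrial folate enzymes and asparagine synthetase followed in the same direction. Mthfd2 had 5.19, 5.56 and 6.10 log2 CPM in C57BL/6J HFD libraries, against 5.63, 6.07 and 6.45 log2 CPM in C57BL/6J RC libraries, and fell by 0.44 ± 0.12 (adjusted p = 0.00919). Of its 12 HFD libraries 8 lay under the lowest RC library. Asns had 6.39, 6.72 and 7.01 log2 CPM in C57BL/6J HFD libraries, against 6.76, 7.09 and 7.24 log2 CPM in C57BL/6J RC libraries. It fell by 0.35 ± 0.09 (adjusted p = 0.00521), with 7 of 12 HFD libraries below all RC libraries. Shmt2 had 3.66, 4.17 and 4.55 log2 CPM in C57BL/6J HFD libraries, against 3.99, 4.45 and 4.73 log2 CPM in C57BL/6J RC libraries, with an adjusted p of 0.0347. The call of Shmt2 was the least firm of the 6: it was lost in 8 of 69 removals of a single library, all of them C57BL/6J (RC day 5 replicates 2 and 3, HFD day 13 replicate 2, RC day 13 replicate 3, HFD day 33 replicates 1 and 2, and RC day 33 replicates 1 and 2), where its difference ran from -0.22 to -0.17. Of 19 alternative fits 12 kept it. It was also lost with day 13 left out (adjusted p = 0.149), with C57BL/6J fitted alone (0.0867), with the insulin genes left out of the total (0.08), with the replication level as a covariate (0.0782) and without 8 libraries of outlying cell type levels (0.072). Removing any single library ended none of the other 5 calls, and that of Psph was lost with day 13 left out (-0.29, adjusted p = 0.0517).

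Day by day in C57BL/6J, the diets were furthest apart at day 5 for 5 of 6 members and at day 13 for Psph, and this order of days is a description. Phgdh had 3.11, 2.68, 3.29 and 3.50 log2 CPM in HFD mice at day 5, against 3.96, 4.59, 4.32 and 3.997 log2 CPM in RC mice. Mthfd2 had 5.26, 5.33, 5.57 and 5.51 log2 CPM in HFD mice, against 6.22, 6.30, 6.03 and 6.06 log2 CPM in RC mice. For Asns the values were 6.48, 6.39, 6.72 and 6.72 log2 CPM in HFD mice and 6.98, 7.24, 7.15 and 7.09 log2 CPM in RC mice. In all 6 members every HFD mouse at day 5 lay below every RC mouse, which held for 5.92% of all genes. At day 5, 3 members passed the test, all lower, against 1.87% of all genes that passed and 1.16% that passed and were lower. These were Phgdh at -1.07 ± 0.20 (adjusted p = 0.00196), Mthfd2 at -0.74 ± 0.20 (0.0409) and Asns at -0.54 ± 0.15 (0.0412). The calls of Mthfd2 and Asns were lost when any of the 8 C57BL/6J day 5 libraries was left out, with 1 member then called, and that of Phgdh was kept. Without the 8 libraries of outlying cell type levels Phgdh had -0.99 at day 5 (adjusted p = 0.0519) and 0 members were called. Psat1, Shmt2 and Psph had differences of -0.68, -0.36 and -0.33 at day 5, with adjusted p of 0.112 to 0.12.

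At day 13 the same separation of every mouse held for 5 of 6 members, against 5.35% of all genes, but limma called 0 of 6 (1.04% of all genes), with 4 of 6 under an unadjusted p of 0.05 and 0 called by voom. Differences ran from -0.62 for Psat1 to -0.23 for Shmt2. Psat1 had 3.19, 3.27, 3.69 and 3.55 log2 CPM in HFD mice, against 3.96, 4.11, 4.14 and 3.98 log2 CPM in RC mice. Psph had 2.85, 2.80, 2.90 and 2.86 log2 CPM in HFD mice at that day, against 3.30, 3.17, 3.25 and 3.17 log2 CPM in RC mice, the narrowest HFD range of the 6 genes in C57BL/6J at day 13. By day 33 the ranges of HFD and RC overlapped in all 6 members, so 0 of 6 were separated, against 5.88% of all genes. There limma called 0 of 6 (0.0% of all genes), with 1 of 6 under an unadjusted p of 0.05 and 0 by voom, and differences ran from -0.39 for Psat1 to -0.07 for Shmt2. The difference between the diet effects of day 33 and day 5 was tested directly. It was largest for Phgdh at 0.81 ± 0.30 with an adjusted p of 0.449, and 0 of 6 members passed by limma (0.0205% of all genes), 1 with an unadjusted p under 0.05 and 0 by voom, so a change of the effect with time was not shown.

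**Figure D2:**
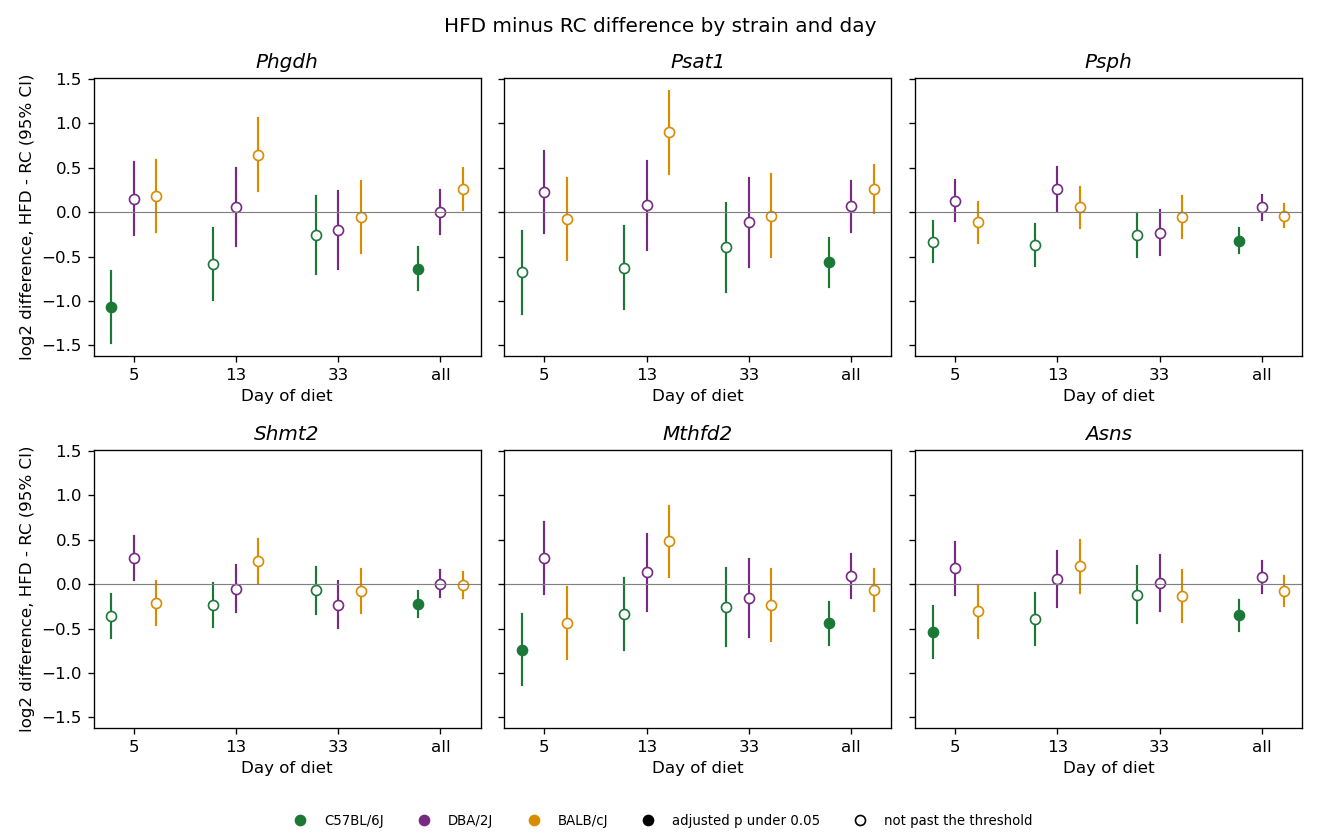
HFD minus RC difference in log2 CPM (y axis, points with 95% confidence intervals) at days 5, 13, 33 and over all days (x axis) for each strain. Filled points passed the adjusted threshold of 0.05, and they are C57BL/6J points only: Phgdh, Mthfd2 and Asns at day 5 and all 6 genes over all days.

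The C57BL/6J day 5 groups bear on this result in a way the design does not separate. Sample titles carry a 3-digit number, and in C57BL/6J at day 5 the HFD numbers and the RC numbers do not overlap and lie 22 apart, so diet and whatever the number stands for cannot be told apart there. With the number as a covariate 0 of 6 members were called in C57BL/6J over all days, and the differences of Shmt2, Mthfd2 and Asns turned to 0.05, 0.003 and 0.02 (adjusted p of 0.945, 0.998 and 0.983). Numbers within the C57BL/6J groups span 3 to 5, and this fit carries a slope from such spans across the gap of 22. It therefore cannot separate diet from number at day 5. With day 5 left out all 6 differences stayed negative, from -0.51 for Psat1 to -0.15 for Shmt2, and 1 member was called, Psph at -0.31 (adjusted p = 0.0389). Markers of other cell types also moved in C57BL/6J. Of 16 stellate cell and fibroblast markers 10 were lower on the high-fat diet, and their summed level was 233.2 to 417.6 CPM in HFD libraries, against 363.3 to 573.9 CPM in RC libraries. The median difference of 27 acinar markers was 0.73, and 1 of them passed, higher. They summed to 522.2 to 6819 CPM in HFD libraries (median 3162), against 594.7 to 11340 CPM in RC libraries (median 1122). In other lists single genes passed, in a contrast where 14.6% of all genes passed and 8.05% passed and were lower. Such small counts say little about a list as a whole. Macrophage markers fell in 2 of 13 cases (Lyz2 at -0.98 and Adgre1 at -0.38), endothelial markers in 2 of 12 (Pecam1 at -0.22 and Emcn at -0.19) and ductal markers in 1 of 11 (Spp1 at -0.57). DNA replication and mitosis genes fell in 4 of 34 cases, among them Rrm2 at -0.44 and Spc25 at -0.47. Of the endocrine markers, Ero1lb and Ucn3 of beta cells fell, at -0.34 and -0.27, Sphkap and Gc of alpha cells fell, at -0.36 and -0.35, and Pyy rose by 0.57. With the level of the stellate or of the acinar list as a covariate the count over all days stayed at 6, as it did with the macrophage and endothelial levels, and with the replication level it was 5, and the part of these cells in the single falls was not tested.

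In DBA/2J no difference between the diets was shown. Over all days limma called 0 of 6 (0.0% of all genes), with 0 under an unadjusted p of 0.05 and 0 by voom. Differences ran from 0.00 for Phgdh, with a 95% interval of -0.25 to 0.25, to 0.09 for Mthfd2, with an interval of -0.15 to 0.34. Phgdh had a lowest, median and highest level of 4.29, 4.59 and 4.85 log2 CPM in 11 DBA/2J HFD libraries, against 4.06, 4.53 and 4.87 log2 CPM in 11 DBA/2J RC libraries. Asns had 6.80, 7.11 and 7.33 log2 CPM in DBA/2J HFD libraries, against 6.78, 6.90 and 7.34 log2 CPM in DBA/2J RC libraries. Limma called 0 of 6 members at day 5 (0.548% of all genes, 1 member under an unadjusted p of 0.05), 0 at day 13 (0.0%, 1 member) and 0 at day 33 (0.0205%, 0 members), and voom called 0 at each day. All 6 differences were positive at day 5 and 5 of 6 were negative at day 33. Mthfd2 at day 5 had 5.84, 5.91, 5.90 and 5.91 log2 CPM in HFD mice, against 5.58, 5.80, 5.46 and 5.52 log2 CPM in RC mice, without overlap, as in 11.7% of all genes. Psat1 and Shmt2 had HFD values wholly below RC at day 33, where 12.2% of all genes did not overlap in one direction or the other.

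In BALB/cJ limma called 0 of 6 members over all days (0.151% of all genes), with 1 under an unadjusted p of 0.05 and 0 by voom. Phgdh and Psat1 had differences of 0.26 ± 0.12 and 0.26 ± 0.13 (adjusted p of 0.429 and 0.498), and the other 4 lay between -0.08 and -0.01. The days differed in sign. At day 5 limma called 0 of 6 (0.315% of all genes, 2 under an unadjusted p of 0.05) and voom 0, and Mthfd2 had 4.63, 4.62, 5.22 and 5.59 log2 CPM in HFD mice, against 5.55, 4.88, 5.74 and 5.65 log2 CPM in RC mice. Asns showed the same split among the HFD mice, with 6.00, 6.15, 6.68 and 6.88 log2 CPM, against 6.80, 6.51, 6.89 and 6.73 log2 CPM in RC mice. In replicates 3 and 4 of that HFD group, the higher pair, the mean level of the acinar list was 9.93 and 9.15 log2 CPM, while in replicates 1 and 2 it was 5.97 and 5.35 log2 CPM. The mean level of the DNA replication and mitosis list was 1.89 and 2.26 log2 CPM in replicates 3 and 4 and 0.58 and 0.87 log2 CPM in replicates 1 and 2, and the title numbers of the pairs also differ. The part of these in the split was not tested.

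At day 13 all 6 BALB/cJ differences were positive, 4 of 6 had an unadjusted p under 0.05, and limma and voom called 0 (0.00685% of all genes by limma). Psat1 had 2.69, 2.48, 3.57 and 3.27 log2 CPM in HFD mice, against 1.93, 1.63, 2.08 and 2.77 log2 CPM in RC mice, a difference of 0.90 ± 0.23 with an adjusted p of 0.185. Phgdh had 2.83, 2.80, 3.32 and 3.35 log2 CPM in HFD mice, against 2.18, 2.39, 2.44 and 2.70 log2 CPM in RC mice, which did not overlap, as in 6.03% of all genes, and differed by 0.65 ± 0.20 (adjusted p = 0.2). The title numbers of this day fall into a lower and a higher run, and the higher run holds 2 HFD mice and 1 RC mouse. Within the lower run, with 2 HFD and 3 RC mice, Psat1 averaged 2.59 log2 CPM in HFD mice and 1.88 log2 CPM in RC mice, and Phgdh 2.82 log2 CPM in HFD mice and 2.34 log2 CPM in RC mice. Within the higher run Psat1 averaged 3.42 log2 CPM in HFD mice and was 2.77 log2 CPM in the RC mouse. Asns averaged 6.41 log2 CPM in HFD mice and 6.50 log2 CPM in RC mice of the lower run, and 7.15 log2 CPM in HFD mice of the higher run, where the RC mouse had 6.81 log2 CPM. With a single RC mouse the higher run has no spread, and these values are a description. At day 33 all 6 differences were negative, from -0.24 to -0.04, and limma called 0 (0.0% of all genes), with 0 under an unadjusted p of 0.05 and 0 by voom.

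Whether the diet effect differed between strains was tested as a difference of effects averaged over days. All 6 differences from C57BL/6J were positive for both other strains. In BALB/cJ against C57BL/6J, 2 members passed (1.27% of all genes): Phgdh at 0.90 ± 0.17 (adjusted p = 0.00735), with the third-lowest p of all genes, and Psat1 at 0.83 ± 0.19 (0.0288). In DBA/2J against C57BL/6J, 2 members passed (1.11% of all genes): Phgdh at 0.64 ± 0.17 (0.0471) and Psph at 0.37 ± 0.10 (0.0431). Mthfd2, Asns and Psat1 had differences of 0.53, 0.43 and 0.63 there, with adjusted p of 0.0807, 0.0593 and 0.0728. The DBA/2J calls were close to the threshold, since in 39 of the 69 removals of a single library the count moved, to between 0 and 4. In BALB/cJ against C57BL/6J 3 removals ended the call of Psat1, with differences of 0.77 to 0.80, and left Phgdh called; they were C57BL/6J HFD day 33 replicate 2, C57BL/6J RC day 33 replicate 1 and BALB/cJ RC day 13 replicate 2. All 4 of these calls ended when day 5 or day 13 was left out or the title number was a covariate. Between BALB/cJ and DBA/2J limma called 0 of 6 (0.0% of all genes), with 0 under an unadjusted p of 0.05 and 0 by voom. These comparisons share the C57BL/6J groups with one another and with the C57BL/6J diet contrast. Averaged over all strains and days, 0 of 6 members passed by limma (5.47% of all genes), 2 with an unadjusted p under 0.05 and 0 by voom, and all 6 differences lay between -0.138 and -0.075.

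For 4 of the genes the difference between strains was estimated larger than any of the diet effects averaged over days. On regular chow BALB/cJ islets held far less Phgdh and Psat1 than the other strains, less Mthfd2 and Asns, slightly more Psph, and Shmt2 at a level not shown to differ. Against C57BL/6J, 5 of 6 members passed, 4 lower and 1 higher, where 56.3% of all genes passed and 28.6% were lower. Against DBA/2J, 5 of 6 passed, 4 lower and 1 higher, where 35.0% of all genes passed and 17.7% were lower. With such a share of the table called, the number of members called says little, and the sizes are given instead.

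Phgdh had a lowest, median and highest level of 2.12, 2.59 and 3.14 log2 CPM in 12 BALB/cJ RC libraries, against 3.58, 4.29 and 4.59 log2 CPM in 11 C57BL/6J RC libraries and 4.06, 4.53 and 4.87 log2 CPM in 11 DBA/2J RC libraries. Every BALB/cJ mouse was below every C57BL/6J mouse and every DBA/2J mouse, as was so for 6.21% and 3.61% of all genes. Its difference was -1.60 ± 0.12 against C57BL/6J (adjusted p = 1.78e-17) and -1.95 ± 0.12 against DBA/2J (5.5e-21). Psat1 had 1.63, 2.38 and 3.25 log2 CPM in BALB/cJ RC libraries, against 3.33, 3.96 and 4.14 log2 CPM in C57BL/6J RC libraries and 3.08, 3.70 and 4.21 log2 CPM in DBA/2J RC libraries. It did not overlap with C57BL/6J and overlapped with DBA/2J, and its difference was -1.42 ± 0.14 against C57BL/6J (2.68e-13) and -1.31 ± 0.14 against DBA/2J (5.77e-12).

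Mthfd2 had 4.70, 5.15 and 5.74 log2 CPM in BALB/cJ RC libraries, against 5.63, 6.07 and 6.45 log2 CPM in C57BL/6J RC libraries and 5.46, 5.78 and 6.37 log2 CPM in DBA/2J RC libraries. The ranges overlapped, with differences of -0.85 ± 0.12 (2.1e-08) against C57BL/6J and -0.65 ± 0.12 (1.01e-05) against DBA/2J. Asns had 6.37, 6.58 and 6.94 log2 CPM in BALB/cJ RC libraries, against 6.76, 7.09 and 7.24 log2 CPM in C57BL/6J RC libraries and 6.78, 6.90 and 7.34 log2 CPM in DBA/2J RC libraries. Its ranges overlapped too. Its difference was -0.42 ± 0.09 against C57BL/6J (5.44e-05) and -0.35 ± 0.09 against DBA/2J (0.000854), and the call against C57BL/6J was lost with the macrophage and endothelial lists as covariates (-0.15, adjusted p = 0.434) and with the title number (-0.19, adjusted p = 0.176). The call against DBA/2J was lost with day 33 left out (-0.23, adjusted p = 0.112). Psph, the last step of the pathway, went the other way, with 3.12, 3.37 and 3.65 log2 CPM in BALB/cJ RC libraries, against 2.73, 3.17 and 3.38 log2 CPM in C57BL/6J RC libraries and 2.69, 3.11 and 3.58 log2 CPM in DBA/2J RC libraries. It was higher in BALB/cJ by 0.25 ± 0.07 in both contrasts, with adjusted p of 0.00193 against C57BL/6J and 0.00309 against DBA/2J, and Cct6a on its opposite strand differed by 0.12 ± 0.05 (0.0546) and 0.14 ± 0.05 (0.0388). The calls of Psph were lost with day 33 left out against C57BL/6J and with day 5 or day 13 left out against DBA/2J. Shmt2 had differences of -0.02 (95% interval -0.17 to 0.13) and -0.01 (-0.16 to 0.14).

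DBA/2J and C57BL/6J were nearer to each other. Only Phgdh passed, higher in DBA/2J by 0.35 ± 0.12 (adjusted p = 0.015), where 54.5% of all genes passed, and that call was lost with the acinar level as a covariate (0.15, adjusted p = 0.348), with day 33 left out (0.12, adjusted p = 0.478) and without C57BL/6J RC day 33 replicate 2 (0.28, adjusted p = 0.0586). Acinar markers separated these strains, 23 of 27 being higher in DBA/2J, with a summed level of 1338 to 12920 CPM in DBA/2J RC libraries, against 594.7 to 11340 CPM in C57BL/6J RC libraries. They were also higher in BALB/cJ than in C57BL/6J, in 17 of 27 cases, at 661.9 to 15720 CPM in BALB/cJ RC libraries, and between BALB/cJ and DBA/2J 1 of 27 was called, higher in BALB/cJ. With the acinar level as a covariate the falls of Phgdh, Psat1 and Mthfd2 in BALB/cJ stayed past the threshold against both strains, as they did under each of the 18 alternative fits that gave a value for them. Stellate cell and fibroblast markers were higher in BALB/cJ than in C57BL/6J in 13 of 16 cases and lower in 1, at 473.7 to 1060 CPM in BALB/cJ RC libraries, against 363.3 to 573.9 CPM in C57BL/6J RC libraries. Endothelial markers were higher in BALB/cJ in 8 of 12 cases (Tek at 0.72, Plvap at 0.67), and delta and PP markers in 5 of 6 (Sst at 0.71). Ductal markers were higher in 6 of 11 and lower in 1 (Krt19 at 2.78, Tspan8 at -0.98), and macrophage markers higher in 1 of 13 and lower in 5 (Adgre1 at -0.79, C1qb at -0.64). Beta-cell markers of lowest p went both ways in BALB/cJ against C57BL/6J (Slc30a8 at -0.53, Slc2a2 at -0.44, Mafa at 1.06, Pdx1 at 0.27). So did those of alpha cells (Slc38a5 at 1.48, Gc at -0.57, Sphkap at -0.44, Ttr at -0.41). The part of these cell types in the strain differences was not tested beyond the covariate fits, which did not include beta or alpha levels.

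On the high-fat diet the order of the strains was the same for Phgdh. Its lowest, median and highest levels were 2.05, 2.80 and 3.63 log2 CPM in BALB/cJ HFD libraries, 2.68, 3.62 and 4.22 log2 CPM in C57BL/6J HFD libraries and 4.29, 4.59 and 4.85 log2 CPM in DBA/2J HFD libraries. DBA/2J did not overlap with either of the others, and BALB/cJ overlapped with C57BL/6J. The order differed for Psph, which was highest in BALB/cJ and lowest in C57BL/6J by its range, with 3.11 to 3.64 log2 CPM in BALB/cJ HFD libraries, 2.58 to 2.97 log2 CPM in C57BL/6J HFD libraries and 2.96 to 3.47 log2 CPM in DBA/2J HFD libraries, and BALB/cJ and C57BL/6J did not overlap. These HFD levels were not tested between strains. The share of all genes without overlap was not counted for them, so whether such separation is unusual is not known.

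**Figure D3:**
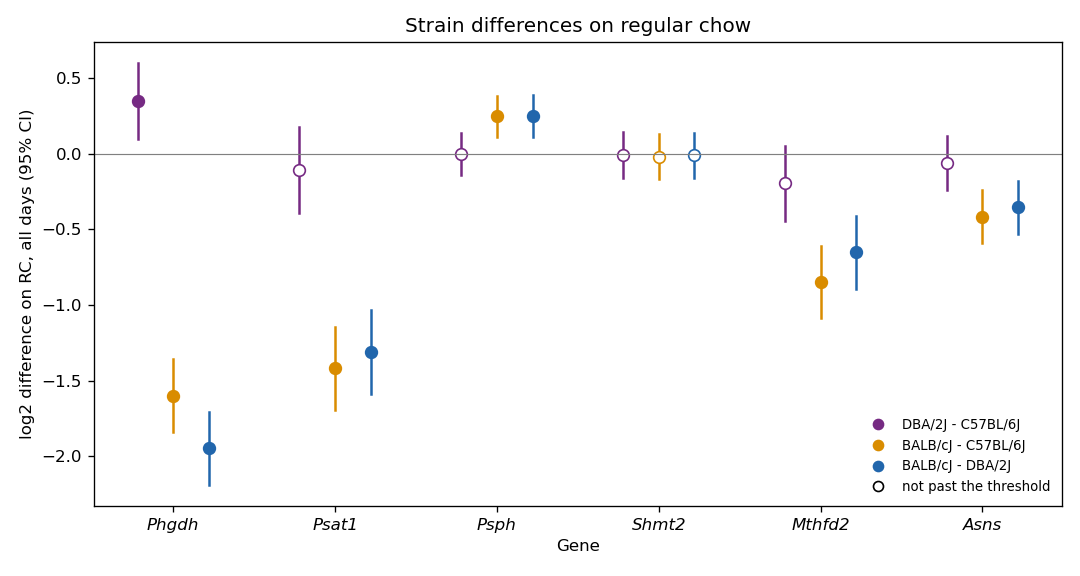
Strain differences on regular chow in log2 CPM (y axis, points with 95% confidence intervals) for each gene (x axis), with all days averaged. Both comparisons of BALB/cJ put Phgdh between -1.95 and -1.60 and Psat1 between -1.42 and -1.31, while Shmt2 lies between -0.02 and -0.01 in all 3 comparisons.

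Few changes with time passed the test, though some estimates were as large as the diet effects. Between day 33 and day 5, 1 of 18 tests on the high-fat diet passed, which was Shmt2 in DBA/2J at -0.34 ± 0.12 (adjusted p = 0.0404), in a contrast where 23.3% of all genes passed. It had 4.36, 4.27, 4.23 and 4.20 log2 CPM at day 33 and 4.72, 4.46, 4.67 and 4.56 log2 CPM at day 5, and 6 of the 69 removals of a library ended the call (DBA/2J HFD day 5 replicates 1, 3 and 4 and day 33 replicates 2, 3 and 4), with differences of -0.35 to -0.30. In the HFD groups of C57BL/6J and BALB/cJ limma called 0 of 6 (0.233% and 0.555% of all genes), with 1 and 0 under an unadjusted p of 0.05. In the RC groups limma called 0 of 6 in C57BL/6J (0.123% of all genes, 1 under an unadjusted p of 0.05), 0 in DBA/2J (0.00685%, 4) and 0 in BALB/cJ (0.00685%, 0). All 6 differences in DBA/2J RC were positive, with a median of 0.377 against -0.01 over all genes, and were largest for Mthfd2 at 0.61 ± 0.22 (adjusted p = 0.275), Psat1 at 0.52 ± 0.25 (0.447) and Phgdh at 0.39 ± 0.22 (0.54). In C57BL/6J HFD, Phgdh had a difference of 0.58 ± 0.20 (0.324). The diet effect of day 33 against that of day 5 gave 0 calls in DBA/2J (0.0137% of all genes, 2 under an unadjusted p of 0.05) and 0 in BALB/cJ (0.0%, 0). By voom the counts of these contrasts were the same.

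Within strains the 6 genes went up and down together from mouse to mouse, though not equally closely. With each strain's mean taken off, all 15 pairs had a positive Pearson correlation over the 69 libraries. It ran from 0.47 for Psph with Shmt2 to 0.915 for Mthfd2 with Asns, a description over libraries that share depth and normalization. Among annotated genes above a minimum mean level, Asns ranked 1 by this correlation for Mthfd2, and Mthfd2 ranked 1 for Asns. For Shmt2 the other members ranked from 59 (Mthfd2) to 1029 (Psph), so many genes outside the set followed Shmt2 more closely. How often pairs of other genes correlate positively was not counted. With the mean of each of the 18 groups taken off instead, Mthfd2 and Asns still had 0.915, and Psat1 with Mthfd2 had 0.765. Left as they were, with strain included, Phgdh and Psph had -0.21, since BALB/cJ had the lowest Phgdh and the highest Psph.

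**Figure D4:**
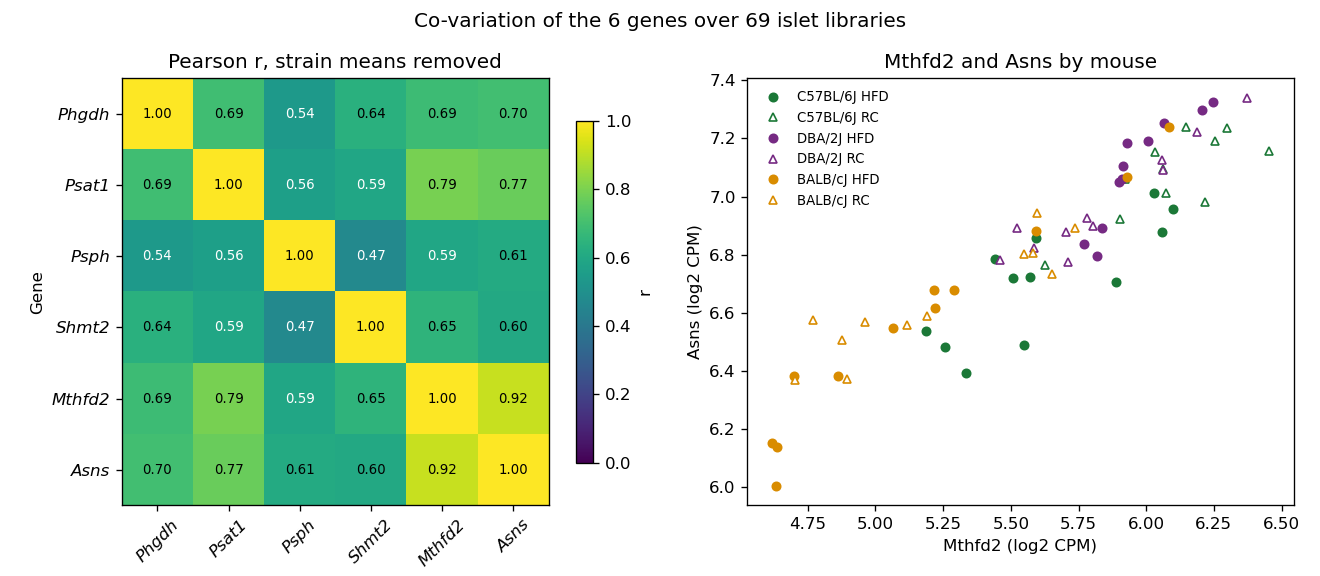
Left, Pearson correlation of each pair of genes over 69 libraries after each strain's mean was taken off (both axes list the genes). Right, Mthfd2 (x axis) and Asns (y axis) in log2 CPM for each mouse, with HFD filled and RC open; the libraries form 1 band from the BALB/cJ mice at the lower left to DBA/2J and C57BL/6J mice at the upper right.

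Genes outside the 6 with the most similar pattern were found by the same correlation over 69 libraries. Mthfd2 was nearest to Aars (0.881), which charges alanine to its tRNA, to the neutral amino acid transporter Slc1a4 (0.873) and to Eif4ebp1 (0.858), a repressor of cap-dependent translation. Asns was nearest to Mars (0.865), Cars (0.848) and Sars (0.846), the synthetases for methionine, cysteine and serine. Psat1 was nearest to Mars (0.745), Eif4ebp1 (0.723) and Aldh1l2 (0.715), a mitochondrial folate enzyme. Phgdh and Shmt2 shared Atf5 (0.735 and 0.763), a bZIP transcription factor, and Aars (0.666 and 0.748) among their nearest 3. Psph was nearest to Aldh18a1 (0.643), which begins proline synthesis, the complex I subunit Ndufb3 (0.621) and the G protein subunit Gng5 (0.612).

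Few of the neighbouring genes of metabolism passed the test in the C57BL/6J diet contrast. Of 25 measured genes of serine, glycine and one-carbon metabolism 1 passed, the mitochondrial 10-formyltetrahydrofolate dehydrogenase Aldh1l2, which fell by 0.72 ± 0.15 (adjusted p = 0.000702). Its diet effect also differed from C57BL/6J in BALB/cJ by 0.96 ± 0.20 (0.0192) and in DBA/2J by 0.81 ± 0.21 (0.0393). The median of the 25 was 0.02, against -0.01 over all genes. Of 12 asparagine, aspartate and glutamine enzymes 0 passed by limma. Shmt1, Sds and Bhmt, which belong to the same pathways, were not analysed here.

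Among 30 genes of the ATF4 pathway and related stress factors 4 fell in C57BL/6J and 0 rose, which is 4 of 30 against 14.6% of all genes called and 8.05% lower, so the count is near that of all genes. They were Pycr1, which completes proline synthesis, at -0.38 ± 0.11 (adjusted p = 0.0162), Aldh18a1 at -0.18 ± 0.06 (0.0295), the stress-induced chromatin protein Nupr1 at -0.70 ± 0.23 (0.0335) and Cebpg, a partner of ATF4, at -0.21 ± 0.07 (0.0339). The median of the 30 was -0.09. Atf4 itself was not among the genes that passed in C57BL/6J. It passed over all strains and days, at -0.15 ± 0.05 (0.0411), a contrast where 5.47% of all genes and 0 of 6 members passed. Of 20 amino acid transporters, Slc7a8 at -0.23 ± 0.06 (0.00453) and Slc38a2 at -0.23 ± 0.06 (0.0122) fell and Slc36a1 rose by 0.13 ± 0.04 (0.0381). Of 20 cytosolic aminoacyl-tRNA synthetases, Farsa alone passed, at 0.19 ± 0.07 (0.0451). Aars and Mars had -0.21 (0.0534) and -0.25 (0.0502) and did not pass. They were named for their correlation with members over these same libraries, diet difference included, so their values are not separate evidence. In DBA/2J and in BALB/cJ 0 genes of these 5 lists passed in the diet contrast over all days by limma.

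The strain difference on chow reached some of the same neighbours. Against DBA/2J, BALB/cJ was lower in Aldh1l2 at -1.83 ± 0.15 (2.88e-16), in Atf5 at -0.81 ± 0.12 (1.37e-07), in Nupr1 at -2.27 ± 0.23 (2.97e-12) and in Ahcy, which hydrolyses S-adenosylhomocysteine, at -1.25 ± 0.10 (9.15e-17). In that contrast 2 of 25 one-carbon genes were higher and 6 lower, and 3 of 30 ATF4 pathway genes were higher and 12 lower, where 17.4% of all genes were higher and 17.7% lower. Gls2, a glutaminase, was higher in BALB/cJ by 1.05 ± 0.16 (1.33e-07), and Slc6a9, a glycine transporter, was lower, at -1.26 ± 0.14 (9.26e-11). Aminoacyl-tRNA synthetases were split, with 4 of 20 higher, among them Wars at 0.53 ± 0.06 (6.31e-12), and 3 lower. Against C57BL/6J, BALB/cJ was lower in Slc1a4, at -0.76 ± 0.15 (1.62e-05) and higher in Cbs, which joins serine to homocysteine, by 1.16 ± 0.09 (8.64e-18). The transporter of lowest p, Slc38a1, was higher by 1.37 ± 0.17 (9.58e-10). In the ATF4 pathway list Stc2 had the lowest p and was higher by 3.11 ± 0.19 (9.6e-22). Eif2ak4 was higher by 0.28 ± 0.04 (1.69e-08), while Vldlr at -0.82 ± 0.09 (1.2e-11) and Nupr1 at -1.78 ± 0.23 (3.17e-09) were lower. There 6 of 25 one-carbon genes were higher and 9 lower, and 8 of 30 ATF4 pathway genes were higher and 13 lower, where 27.7% of all genes were higher and 28.6% lower.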

How the data were processed

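Per the labels, islets were isolated by Liberase digestion and hand-picked, and poly(A) RNA was sequenced as stranded single-end libraries (TruSeq). Alignment and counting tools, per the submitters' processing notes, include HTSeq 0.9.1 and STAR 2.5.3a. Per the submitters' processing notes the authors also used edgeR, and the build was GRCm38, an assembly of C57BL/6J. The authors deposited log2 CPM values of 14604 genes, normalized between libraries. Of 72 samples, 69 have a column and 3 were not analysed here. Reads were recovered from the lowest step of each library, and every value of up to 1000 reads corresponded to a whole read within 0.05 reads. Higher values, which include all of Asns and many of Mthfd2, are outside that check. A strain label C56BL/6J was read as C57BL/6J, and the days are those of the sample labels.

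A filter of log2 CPM above 0 in at least 4 libraries removed 0 genes. limma 3.58.1 in R 4.3.3 fitted 1 mean per group to all 69 libraries (eBayes with trend), and was tested on simulated data. The simulated noise was normal and independent, without effects of title number or cell type, so that test checks the code only. Contrasts weight days equally and are two-sided. Since each library is 1 mouse, p-values measure the spread between mice. Exon lengths and overlaps come from GENCODE release 21, matched for 14589 identifiers. The members and gene lists were chosen with earlier results of these data known. Named genes are the 6 members, up to 4 called genes per list with the lowest p in the diet contrasts over all days and the chow strain contrasts, and for each member the 3 genes of highest correlation among annotated genes above a minimum mean level. Eif4ebp1, Aars, Mars and other correlated genes come from the last part. Aldh1l2 was named in the differences of diet effects, and Cct6a and Ndufa4l2 for their overlap, after their values were seen. Alternatives covered libraries, days, scaling, weights, cell type levels and title numbers. Title numbers shared between diets were not taken as pairs. No strain and day with 3 pairs had all of its pairs correlated above 0.1 (C57BL/6J day 33 had 0.053 to 0.226), although both pairs of BALB/cJ day 5 had 0.23 and 0.374.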

Additional observations from a re-analysis of the deposited data

Results flagged for a closer look

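In the main fit the diet effects of Phgdh, Psat1 and Psph differed between strains by a direct test. In BALB/cJ minus C57BL/6J, Phgdh had a difference of effects of 0.90 and Psat1 of 0.83. In DBA/2J minus C57BL/6J, Phgdh had 0.64 and Psph 0.37. Behind them, Phgdh differed between HFD and RC by 0.26 in BALB/cJ, 0.00 in DBA/2J and -0.64 in C57BL/6J. These differences share the C57BL/6J groups, whose day 5 libraries carry title numbers that do not overlap between diets.

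One library stood apart from its group. Mthfd2 in DBA/2J HFD day 5 replicate 1 had 5.84 log2 CPM, against 5.90 to 5.91 log2 CPM in the other 3, a gap of 0.833 of the range of the group, which is itself narrow. In all, 90 groups of 4 were examined (15 for each gene), and chance flags about 1 in 20.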

How the results depend on the processing

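Over the 40 values of single members examined under 20 settings each at most, 653 of 737 kept their direction and their side of the threshold, 61 lost the threshold, 14 gained it and 9 changed sign, and the causes were not tested. With the title number as a covariate the number of members called was 0 in C57BL/6J over all days and at day 5, 0 in both differences of diet effect from C57BL/6J, 0 for DBA/2J HFD day 33 minus day 5, and 2 and 3 for BALB/cJ RC and HFD day 33 minus day 5. There Shmt2, Mthfd2 and Asns reversed in C57BL/6J over all days (0.0485, 0.0030 and 0.0159), and Phgdh, Psph, Shmt2, Mthfd2 and Asns at its day 5 (0.534, 0.260, 0.434, 0.572 and 0.536). The adjusted p of these reversed values ran from 0.916 to 0.998. With day 5 left out, the count was 1 in C57BL/6J over all days and 0 in both differences of effect. With day 13 left out it was 0 in both differences and 1 over all strains. With day 33 left out it was 5 for the DBA/2J difference, 2 for DBA/2J minus C57BL/6J on RC and 1 for C57BL/6J day 5. Array weights gave 1 over all strains, 6 and 3 in C57BL/6J at days 5 and 13, 1 in DBA/2J at day 5, 3 in BALB/cJ at day 13, 5 in each difference of effect from C57BL/6J, 2 for DBA/2J minus C57BL/6J on RC, and for day 33 minus day 5, 1 in the C57BL/6J diet effect, 1 in C57BL/6J HFD, 2 in the DBA/2J diet effect and 1 in DBA/2J RC.

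Without the variance trend the count was 1 in C57BL/6J day 5 and 1 for the DBA/2J difference of effect. Quantile normalization gave 0 for that difference, as did leaving the insulin genes out of the total, and quantile normalization and median centring gave 0 for DBA/2J HFD over time. The stellate covariate gave 1 in C57BL/6J day 5, 0 for the DBA/2J difference and 0 for DBA/2J HFD over time. The acinar covariate gave 4 in C57BL/6J day 13 and 5 for the DBA/2J difference. Macrophage and endothelial covariates gave 0 and 1 for the DBA/2J and BALB/cJ differences. The replication covariate, chosen after seeing the data, gave 5 in C57BL/6J day 5, 1 in BALB/cJ day 13, 4 for the DBA/2J difference, 1 for C57BL/6J RC over time and 0 for DBA/2J HFD over time, and turned Asns in C57BL/6J day 33 to 0.0540. Without 8 libraries of outlying cell type levels it was 0 in C57BL/6J day 5 and 1 for the DBA/2J difference. Each strain fitted alone gave 1 in DBA/2J RC over time.

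Leaving out 1 library at a time gave counts of 1 to 3 in C57BL/6J day 5, 0 to 1 in BALB/cJ day 13, 0 to 4 and 1 to 2 for the DBA/2J and BALB/cJ differences, 0 to 1 for DBA/2J minus C57BL/6J on RC and 0 to 1 for DBA/2J HFD over time. Shmt2 in C57BL/6J day 33 ranged from -0.212 to 0.0855, turning positive without HFD replicate 1 or RC replicate 1, and BALB/cJ day 13 had 1 call without RC replicate 4. Fits with a replicate block of title number, in 21 pairs at a consensus correlation of 0.0565, moved no count by over 1.5 times. The random block gave 6 members in C57BL/6J over all days, 3 at its day 5 and 2 in each difference of effect from it. The fixed block, fitted to the pairs alone, gave no value for any of these. C57BL/6J day 5 has 0 pairs, so a block does not separate diet from title number there. The planned edgeR and DESeq2 fits were not run, since the deposited unit is log2 CPM, and voom on recovered reads, chosen after seeing the data, took their place. Filtering changed no value, and the lowest member counts, 45 and 51 reads, limit Psat1 and Phgdh in BALB/cJ.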
